A study of Mus musculus with 4 samples.

Results

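The genes described here encode the cadherins and protocadherins, their cytoplasmic partners the catenins, and the immunoglobulin-family and synaptic adhesion molecules of neural cells. They were taken by name from the protein-coding rows of the deposited table, with no limit on their values: cadherin (Cdh), protocadherin (Pcdh), Fat, Dchs1, Celsr, alpha-, beta- and delta-catenin (Ctnna, Ctnnb, Ctnnd), Ncam, L1cam, contactin (Cntn), nectin, Cadm, neuroligin (Nlgn) and neurexin (Nrxn) genes. The names were chosen with earlier results of these data known. There were 97 of them among 13881 genes. A further 31 protein-coding genes of the annotation carry such names and were not analysed here, among them Cdh1 and Cdh5.

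RNA was measured in bulk in cultured neural progenitor cells of mouse forebrain (strain C57BL/6, embryonic day 14), kept dividing in medium with 2% B27, EGF and FGF-2 at 20 ng/ml each. The shRybp group was infected with a lentivirus that expresses a short hairpin RNA against Rybp, a subunit of variant Polycomb repressive complex 1, and the other group is labelled as a control whose hairpin or vector is not described in the labels. Each group has 2 libraries, and nothing says that they came from separate cultures, so the spread behind each p-value is that between libraries and may be technical. Each library held 14355308 to 17598873 counts. Rybp itself had 3.01 and 2.66 FPKM (fragments per kilobase of exon, scaled to library depth) in shRybp, against 4.43 and 3.95 FPKM in control, a log2 change of -0.60 (SE 0.12, edgeR's adjusted p = 0.0017).

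Classical cadherins span the membrane and bind the same or a similar cadherin on the next cell through calcium-stabilized extracellular domains, while their tails hold beta-catenin, which alpha-catenin links to actin. In the embryonic forebrain, progenitors are joined by N-cadherin junctions at the ventricular surface, and their sets of cadherins and protocadherins differ between regions and cell types. Protocadherins, nectins, contactins and the Cadm, Ncam and L1 proteins add further recognition between cells, and neurexins on axons meet neuroligins on dendrites across the synapse.

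Of the 97 genes, 72 had a mean of at least 1 FPKM over the 4 libraries and were tested, with edgeR's quasi-likelihood test adjusted over all 12062 genes tested. In shRybp 26 of them fell and 6 rose. Over all genes tested, 16.7% fell and 16.3% rose, while 36.1% of the adhesion genes tested fell and 8.3% rose. In either direction 33.0% of all genes tested were called. The median log2 fold change was -0.17 among the adhesion genes and 0.003 among all genes. By 1.5-fold or more, 17 of the 72 fell and 1 rose, where 4.87% of all genes tested fell and 2.82% rose by that much. The minimum level bears on these counts. Pcdhb10, Pcdhb11 and Cntn6, which fell, reached it only through control, while Cntn3, above 1 FPKM only in shRybp, did not reach it. With no minimum level 32 of the 97 fell and 8 rose, where 16.0% of all 13881 genes fell and 15.3% rose. The summed level of the 97 genes was 1008 and 1027 FPKM in the shRybp libraries, against 1112 and 1147 FPKM in the control libraries.

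**Figure D1:**
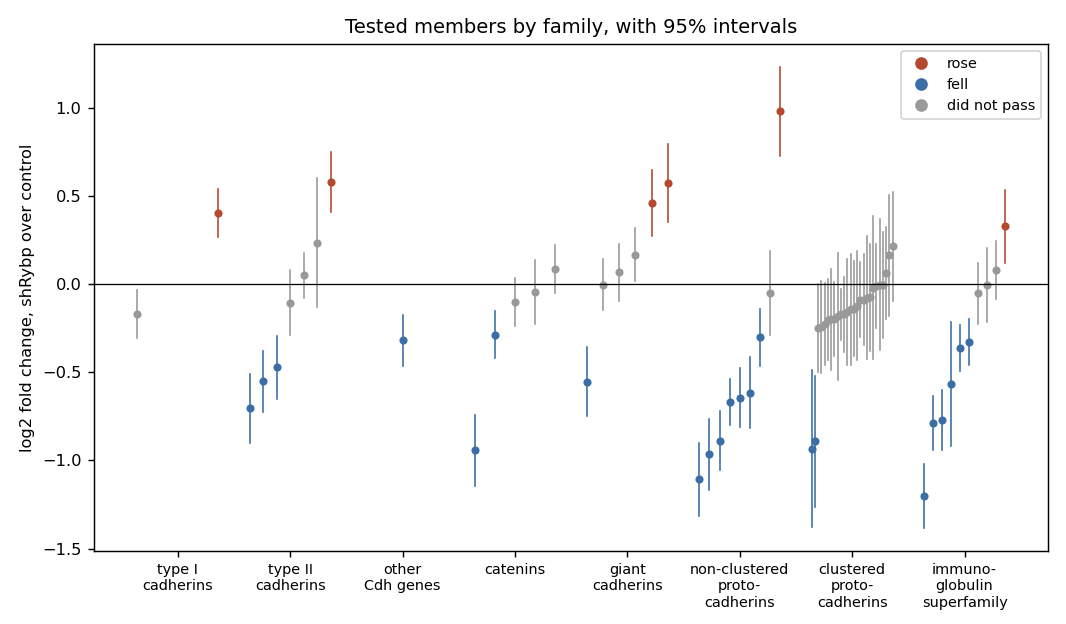
Each point is 1 tested gene of the cadherin, catenin and immunoglobulin families, grouped by family on the horizontal axis, with its log2 fold change in shRybp over control and its 95% interval on the vertical axis. Falls are spread over most families, with 7 of 9 among the non-clustered protocadherins, while 24 of the 26 clustered protocadherins tested did not pass and lie between -0.25 and 0.21.

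Markers of several cell types moved in the same libraries. All 10 neural progenitor markers listed were in the table, with summed levels of 2359 to 2443 FPKM in shRybp and 2818 to 3080 FPKM in control, and of the 9 tested 2 rose (Nes and Vim) and 5 fell. Fabp7 made up most of that sum, with 1468 and 1351 FPKM in shRybp against 2210 and 1982 FPKM in control. The other 9 markers summed to 975.04 and 1008 FPKM in shRybp, against 870 and 836 FPKM in control. Fabp7 was set apart after its values were seen, and of the others only Nes and Vim rose, so the higher sum is no rise of the markers in general. All 7 astrocyte markers tested fell (summed level 231 to 250.4 FPKM in shRybp, 589 to 602 FPKM in control), with Gjb6 below the test's minimum. Of 8 oligodendrocyte lineage markers 3 fell and 0 rose (737 to 774 FPKM in shRybp, 801 to 827 FPKM in control), and of 6 neuron markers tested 3 fell and 1 rose (73.1 to 79.3 FPKM in shRybp, 88.9 to 90.5 FPKM in control). Of the microglia and blood markers, Csf1r and P2ry12 were present at a sum of 0.63 to 0.97 FPKM in shRybp and 0.17 to 0.95 FPKM in control, and the endothelial markers Kdr and Flt1 summed to 0.68 to 0.69 FPKM in shRybp and 0.56 to 0.76 FPKM in control. Of the mesenchyme markers only Foxc1 was in the table and rose (2.12 to 2.56 FPKM in shRybp, 1.55 to 1.74 FPKM in control), and of the ependymal markers only Foxj1, which fell (2.78 to 2.99 FPKM in shRybp, 4.13 to 4.22 FPKM in control). No value of 0 occurred among these sums, and the other listed markers were not analysed here. In bulk RNA fewer cells of a type and less RNA per cell cannot be told apart, and the part of these shifts in the adhesion gene results was not tested.

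Among the classical cadherins some genes rose and others fell, and the make-up of the group differed between shRybp and control. The leading genes in these cells were Cdh20, Cdh4 (R-cadherin), Cdh2 (N-cadherin, the main cadherin of neural progenitor junctions) and Cdh22. Cdh4, on mm10 chromosome 2 (179442431 to 179899373, plus strand), had 47.9 and 51.3 FPKM in shRybp, against 35.9 and 37.3 FPKM in control. Both shRybp libraries lay above both control libraries, and Cdh4 rose (log2 change 0.40, SE 0.06, edgeR's adjusted p = 0.00035). Cdh2 had 30.3 and 29.5 FPKM in shRybp and 34.1 and 31.6 FPKM in control. It lay lower in shRybp in all pairs of libraries but did not pass the test (log2 change -0.17, 95% interval -0.31 to -0.03, edgeR's adjusted p = 0.058). Cdh4 thus stood at 1.58 and 1.74 times the FPKM of Cdh2 in the shRybp libraries, against 1.05 and 1.18 times in the control libraries.

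Type II cadherins, which share the same fold but bind with their own adhesive specificities, went both ways. Of 7 tested, 1 rose, 3 fell and 3 did not pass. Cdh22 (chromosome 2, 165111507 to 165234853, minus strand) rose, with 19.1 and 20.3 FPKM in shRybp against 12.4 and 13.4 FPKM in control (log2 change 0.58, SE 0.08, edgeR's adjusted p = 0.00015). Cdh6 fell, with 2.70 and 2.46 FPKM in shRybp against 4.14 and 4.04 FPKM in control (log2 change -0.70, SE 0.09, edgeR's adjusted p = 9.7e-05). The related genes Cdh11 (-0.55), a cadherin also of mesenchymal cells, and Cdh10 (-0.47) fell on the log2 scale as well. Cdh20, the highest of the type II genes, had 46.4 and 46.0 FPKM in shRybp and 43.0 and 44.1 FPKM in control, a difference that did not pass (log2 change 0.05, 95% interval -0.08 to 0.18, edgeR's adjusted p = 0.56). Cdh19 (-0.11) and Cdh24 (0.23) did not pass either.

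The 9 classical cadherin genes in the table together had 173 and 175 FPKM in shRybp, against 160.4 and 161 FPKM in control. The share of Cdh4 in that sum was 27.7% and 29.3% in shRybp, against 22.4% and 23.2% in control, and that of Cdh22 was 11.02% and 11.6% in shRybp, against 7.73% and 8.31% in control. The share of Cdh2 was 17.5% and 16.9% in shRybp and 21.3% and 19.6% in control. Cdh4 was the highest of the 9 in both shRybp libraries and Cdh20 in both control libraries, and Cdh20 kept 26.3% to 26.8% of the sum in shRybp and 26.8% to 27.4% in control. Cdh11, Cdh10 and Cdh6 together had lower shares in both shRybp libraries, with Cdh11 at 3.92% and 3.58% in shRybp and 6.04% and 5.56% in control. Cdh13 (T-cadherin), which is held in the membrane by a lipid anchor and has no catenin-binding tail, was the only other Cdh gene in the table. It fell, with 21.05 and 21.97 FPKM in shRybp against 24.7 and 27.8 FPKM in control (log2 change -0.32, SE 0.07, edgeR's adjusted p = 0.0029).

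**Figure D2:**
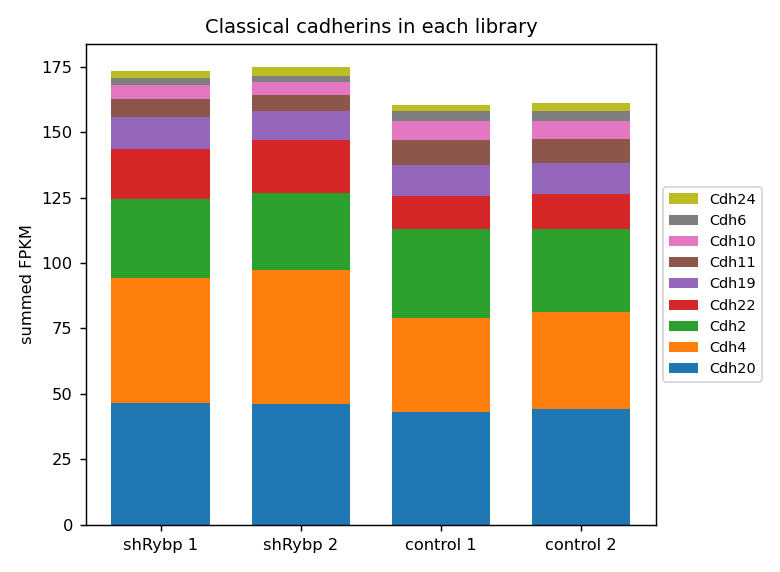
Stacked bars give the FPKM of the 9 classical cadherin genes in each library, shRybp left and control right, with library on the horizontal axis and summed FPKM on the vertical axis. The Cdh4 and Cdh22 layers are thicker and the Cdh11, Cdh10 and Cdh6 layers thinner in both shRybp libraries, on totals of 173 to 175 FPKM in shRybp and 160.4 to 161 FPKM in control.

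Among the catenins, the ubiquitous genes did not pass the test and the neural ones fell. Ctnnb1, which encodes beta-catenin, the link from cadherins to alpha-catenin and the transcriptional effector of Wnt signalling, had the highest level of all the adhesion genes. It had 206 and 207 FPKM in shRybp and 215 and 217 FPKM in control (log2 change -0.10, 95% interval -0.24 to 0.03, edgeR's adjusted p = 0.24), and 14.6% of its exon bases also lie in exons of Ulk4 on the other strand. Ctnna1, the widely expressed alpha-catenin, had 51.1 and 49.4 FPKM in shRybp and 47.7 and 44.7 FPKM in control and did not pass (log2 change 0.09, 95% interval -0.05 to 0.22, edgeR's adjusted p = 0.32). Ctnna2, the neuronal alpha-catenin (chromosome 6, 76881637 to 77979699, minus strand), fell, with 2.50 and 2.38 FPKM in shRybp against 4.71 and 4.44 FPKM in control (log2 change -0.94, SE 0.09, edgeR's adjusted p = 1.1e-05). The level in shRybp was 52.0% of that in control, and the 4 values of this gene fall in separate pairs by group. Ctnnd2, the neural delta-catenin, fell by 0.29 in log2 units (edgeR's adjusted p = 0.0035), and Ctnnd1 (p120-catenin) did not pass (-0.05). The level of Ctnnd1 is uncertain, since 61.2% of its exon bases lie in exons of the same-strand gene model Gm28635 and 56.7% of its transcript windows are shared with other genes.

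The giant cadherins carry planar polarity signals and, through Fat and Dchs proteins, inputs to the Hippo pathway. Celsr2, a 7-pass cadherin of planar polarity, rose and its paralogue Celsr1 fell. Celsr2 (chromosome 3, 108390851 to 108415552, minus strand) had 9.63 and 11.7 FPKM in shRybp, against 6.27 and 7.75 FPKM in control (log2 change 0.57, SE 0.10, edgeR's adjusted p = 0.0010). Celsr1 had 1.89 and 2.07 FPKM in shRybp, against 2.74 and 2.94 FPKM in control (log2 change -0.55, SE 0.09, edgeR's adjusted p = 0.00056). The FPKM of Celsr1 was 0.196 and 0.178 times that of Celsr2 in shRybp, against 0.437 and 0.379 times in control. Fat4, whose protein binds Dchs1 on neighbouring cells, rose (log2 change 0.46, SE 0.09, edgeR's adjusted p = 0.0015), with 9.09 and 7.45 FPKM in shRybp against 5.71 and 6.03 FPKM in control. Its partner Dchs1 had 13.3 and 14.98 FPKM in shRybp and 11.97 and 12.7 FPKM in control and did not pass (log2 change 0.17, 95% interval 0.01 to 0.32, edgeR's adjusted p = 0.086). Fat1, the highest of the group, had 44.9 and 43.6 FPKM in shRybp and 41.2 and 45.4 FPKM in control, groups that overlap (log2 change -0.00, 95% interval -0.15 to 0.14), and Fat3 did not pass (0.07).

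Non-clustered protocadherins are single genes whose proteins mostly bind their own kind and guide axon growth and cell sorting in the brain. Of 9 tested, 7 fell and 1 rose, and their summed level, with the 2 untested genes, was 43.5 and 41.6 FPKM in shRybp against 59.4 and 60.0 FPKM in control. The promoters of the gene that rose, Pcdh18, and of the falling Pcdh17 and Pcdh10 are shown with those of the falling Cadm4 and Cadm2, since they let a reader compare starts of genes that moved in opposite directions. Each is 300 bases, from 250 before to 50 after the RefSeq start on GRCm38.p6, written 5′ to 3′ on the gene's strand, with every CG pair in capitals because variant Polycomb repressive complex 1 is known to be recruited to CG-rich promoters. The windows are chr3:49757267-49757566 (minus strand) for Pcdh18, chr14:84443313-84443612 (plus) for Pcdh17, chr3:45378148-45378447 (plus) for Pcdh10, chr7:24481773-24482072 (plus) for Cadm4 and chr16:67620859-67621158 (minus) for Cadm2.
Pcdh18: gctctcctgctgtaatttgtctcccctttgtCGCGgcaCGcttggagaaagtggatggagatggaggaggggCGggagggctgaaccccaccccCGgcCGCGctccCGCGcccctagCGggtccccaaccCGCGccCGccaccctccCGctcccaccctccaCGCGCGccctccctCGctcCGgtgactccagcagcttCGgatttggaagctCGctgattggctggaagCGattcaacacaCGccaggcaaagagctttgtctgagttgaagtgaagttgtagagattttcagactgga
Pcdh17: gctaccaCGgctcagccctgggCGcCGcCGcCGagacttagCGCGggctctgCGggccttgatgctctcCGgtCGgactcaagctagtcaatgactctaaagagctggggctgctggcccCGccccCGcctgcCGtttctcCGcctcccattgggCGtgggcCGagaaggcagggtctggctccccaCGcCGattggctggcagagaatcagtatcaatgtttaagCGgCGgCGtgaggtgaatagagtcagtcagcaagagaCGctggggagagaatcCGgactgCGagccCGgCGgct
Pcdh10: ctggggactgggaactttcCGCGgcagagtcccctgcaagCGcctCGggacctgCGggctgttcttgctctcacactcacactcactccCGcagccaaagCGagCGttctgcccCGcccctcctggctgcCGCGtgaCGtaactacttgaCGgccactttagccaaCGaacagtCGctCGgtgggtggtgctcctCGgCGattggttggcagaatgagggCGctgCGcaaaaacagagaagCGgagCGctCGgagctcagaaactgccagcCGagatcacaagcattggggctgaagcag
Cadm4: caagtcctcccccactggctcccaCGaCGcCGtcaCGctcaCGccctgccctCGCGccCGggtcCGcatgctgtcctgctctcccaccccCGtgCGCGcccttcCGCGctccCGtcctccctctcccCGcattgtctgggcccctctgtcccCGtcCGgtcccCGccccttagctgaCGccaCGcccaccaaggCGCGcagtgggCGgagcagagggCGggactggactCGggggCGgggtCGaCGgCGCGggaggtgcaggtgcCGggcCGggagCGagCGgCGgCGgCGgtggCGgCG
Cadm2: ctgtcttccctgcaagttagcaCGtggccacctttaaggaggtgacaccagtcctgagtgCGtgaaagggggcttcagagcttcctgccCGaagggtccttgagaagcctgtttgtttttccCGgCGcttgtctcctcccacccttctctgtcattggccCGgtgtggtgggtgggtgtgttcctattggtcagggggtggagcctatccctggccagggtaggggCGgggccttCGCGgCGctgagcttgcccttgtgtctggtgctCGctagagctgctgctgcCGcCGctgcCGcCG

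Pcdh18 held 23 CG pairs, Pcdh17 held 26, Pcdh10 held 24, Cadm4 held 40 and Cadm2 held 15. A promoter starting within 150 bases of the table's gene start was found for 24 of the 97 genes and for 7875 genes of the table, in which the median was 22 CG pairs and 99.8% held at least 1. The median was 21 for the 12 matched genes that fell (range 8 to 41) and 30.5 for the 4 that rose (range 13 to 40), so the ranges overlap. Pcdh18, which rose, and Pcdh10, which fell, differed by 1 CG pair. The 6 letters CAGGTG, an E-box read by repressors of the Snail and ZEB families, were searched on both strands. They occurred in 3 of the 12 promoters of genes that fell and in 1 of the 4 of genes that rose. Of the 4 that did not pass and the 4 not tested, 0 held them. The share was 16.7% of all 24 matched adhesion genes and 16.3% of all 7875. Such matches are letters only and say nothing of binding.

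Pcdh18 (chromosome 3, 49743296 to 49757325, minus strand) had 3.80 and 3.83 FPKM in shRybp, against 2.00 and 1.77 FPKM in control. Its level was 1.97-fold higher in shRybp (log2 change 0.98, SE 0.12, edgeR's adjusted p = 5.5e-05). It was the only adhesion gene rising by 1.5-fold or more among those with a mean of at least 1 FPKM. With no minimum level Cntn3 (log2 change 0.67) and Nectin4 (1.26, from 8 to 26 counts per library) rose by that much as well. Pcdh11x, on the X chromosome (120290259 to 120910619, plus strand), fell to 1.98 and 1.74 FPKM in shRybp, against 4.05 and 3.77 FPKM in control (log2 change -1.11, SE 0.10, edgeR's adjusted p = 4.0e-06). Pcdh15, best known from the tip links of sensory hair cells, fell to 1.22 and 1.10 FPKM in shRybp, against 2.10 and 2.31 FPKM in control (log2 change -0.97, SE 0.09, edgeR's adjusted p = 1.0e-05). Pcdh18, Pcdh11x and Pcdh15 each had their 4 values in separate pairs by group, with 152 to 995 counts per library behind them.

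Pcdh17 fell to 3.58 and 3.38 FPKM in shRybp, against 6.03 and 6.53 FPKM in control (log2 change -0.89, SE 0.08, edgeR's adjusted p = 4.9e-06). Pcdh10, the highest of the group, fell to 11.6 and 11.2 FPKM in shRybp, against 17.9 and 17.4 FPKM in control (log2 change -0.67, SE 0.06, edgeR's adjusted p = 5.7e-06). Pcdh9 fell to 8.13 and 7.36 FPKM in shRybp, against 11.6 and 11.98 FPKM in control (log2 change -0.64, SE 0.08, edgeR's adjusted p = 6.1e-05). Both groups' libraries lay apart for all 3 genes. Pcdh19, the X-linked gene mutated in a human epilepsy, fell to 2.80 and 2.60 FPKM in shRybp, against 4.21 and 3.86 FPKM in control (log2 change -0.62, SE 0.09, edgeR's adjusted p = 0.00030). Pcdh7 fell by 0.30 in log2 units (edgeR's adjusted p = 0.0081), a call that was lost without shRybp replicate 2 (edgeR's adjusted p = 0.11), and 21.1% of its exon bases are covered by antisense exons. Pcdh1 did not pass (-0.05), and Pcdh8 and Pcdh20 were below 1 FPKM. The ratio of Pcdh18 to Pcdh17 was 1.06 and 1.13 in shRybp, against 0.331 and 0.272 in control.

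**Figure D3:**
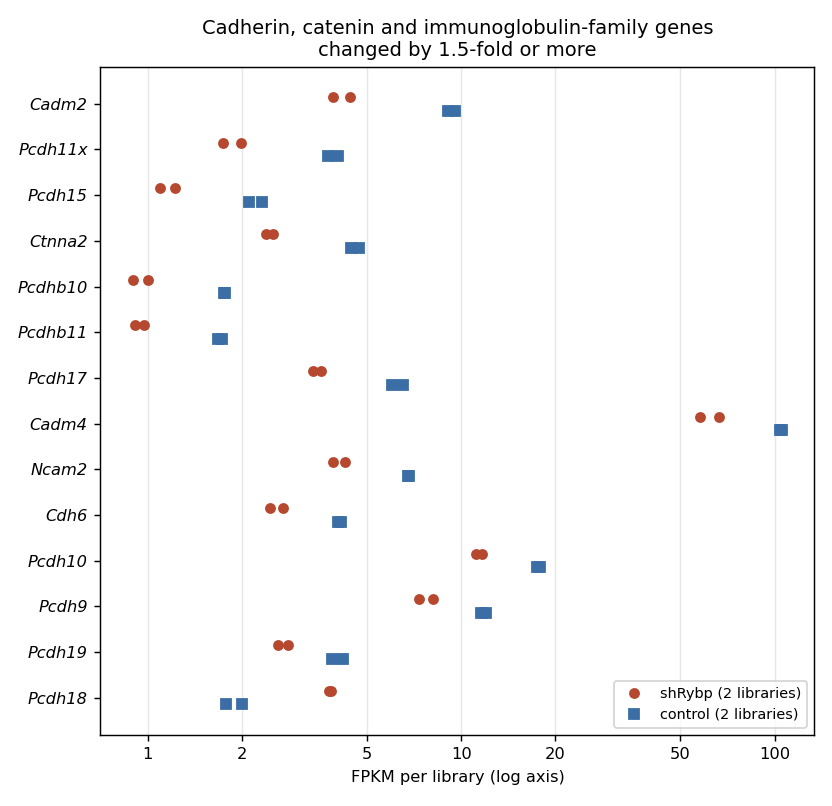
Each row is 1 of the 14 cadherin, protocadherin, catenin and immunoglobulin-family genes that passed the test with a change of 1.5-fold or more, with FPKM per library on a logarithmic horizontal axis, circles for the 2 shRybp libraries and squares for the 2 control libraries. The shRybp circles lie left of the control squares in every row except Pcdh18, at levels from 0.897 FPKM (Pcdhb10) to 105.6 FPKM (Cadm4).

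The clustered protocadherins stand in 3 neighbouring arrays on chromosome 18 and give each neuron its own set of surface isoforms. In the alpha and gamma arrays a variable first exon is spliced to constant exons shared by the array, whereas each Pcdhb gene is its own unit. Among the 42 such genes measured, of which only Pcdhac2 is from the alpha array, 26 were tested, 2 fell, 0 rose and 24 did not pass. The log2 fold changes of these 24 were -0.25 to 0.21, and the median over the 26 was -0.14. Pcdhgc3 dominated them, with 106 and 114 FPKM in shRybp and 117 and 125 FPKM in control (log2 change -0.17, 95% interval -0.32 to -0.03, edgeR's adjusted p = 0.061). Exons of BC037039 on the other strand cover 28.4% of the exon bases of Pcdhgc3. Of the 50-base transcript windows of Pcdhgc3 37.7% also occur in transcripts of other genes. How the authors assigned reads of constant exons is not described in the labels, so the level of each Pcdhg gene and of Pcdhac2 is uncertain. Pcdhb20, the next highest, had 4.79 and 3.93 FPKM in shRybp and 5.15 and 4.89 FPKM in control and did not pass (log2 change -0.24, 95% interval -0.50 to 0.02, edgeR's adjusted p = 0.14). Pcdhb18 passed without control replicate 1 (edgeR's adjusted p = 0.039) and Pcdhgb6 without control replicate 2 (edgeR's adjusted p = 0.047), both with log2 changes below 0.

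The Pcdhb array held both falling genes, Pcdhb10 and Pcdhb11, which are neighbours. Both reached the minimum of 1 FPKM only through control, the group where they are higher. The mean of Pcdhb10 was 0.948 FPKM in shRybp and 1.764 FPKM in control, and that of Pcdhb11 was 0.942 FPKM in shRybp and 1.705 FPKM in control. Pcdhb10 had 1.00 and 0.897 FPKM in shRybp, against 1.77 and 1.76 FPKM in control (log2 change -0.93, SE 0.20, edgeR's adjusted p = 0.0040), from 41 and 42 counts in shRybp against 89 and 80 counts in control. Pcdhb11 had 0.976 and 0.909 FPKM in shRybp, against 1.68 and 1.73 FPKM in control (log2 change -0.89, SE 0.17, edgeR's adjusted p = 0.0017). Both lay lower in each shRybp library, and 7.21% and 9.52% of their transcript windows are shared with other genes, so part of their reads may belong to a paralogue. With no minimum level, where 16.0% of all 13881 genes fell and 15.3% rose, 4 more Pcdhb genes passed the test and fell, Pcdhb2 (log2 change -0.99), Pcdhb6 (-0.93), Pcdhb9 (-1.13) and Pcdhb14 (-0.54), from 17 to 174 counts per library. These 6 of the 20 Pcdhb genes all lie between Pcdhb2 and Pcdhb14. In the same stretch Pcdhb3, Pcdhb4, Pcdhb5, Pcdhb7, Pcdhb8 and Pcdhb12 did not pass, with log2 changes of -0.71 to -0.12. Pcdhb15 to Pcdhb22 ranged from -0.28 to -0.00 and none passed, a range that also holds Pcdhb4 (-0.12), Pcdhb5 (-0.14) and Pcdhb12 (-0.12). This division of the array was drawn after the values were seen. Summed over 20 genes the Pcdhb array had 156 and 146 CPM (counts scaled to library depth) in shRybp, against 170 and 186 in control, and the 18 Pcdhga and Pcdhgb genes had 168 and 171 CPM in shRybp, against 174 and 176 CPM in control. The clustered genes below the minimum were Pcdhb2, Pcdhb3, Pcdhb4, Pcdhb6 to Pcdhb9, Pcdhb12, Pcdhb14, Pcdhb15, Pcdhga8, Pcdhga9, Pcdhga10, Pcdhga12, Pcdhgb5 and Pcdhgc5, with Pcdhb14 the highest at a mean of 0.98 FPKM.

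**Figure D4:**
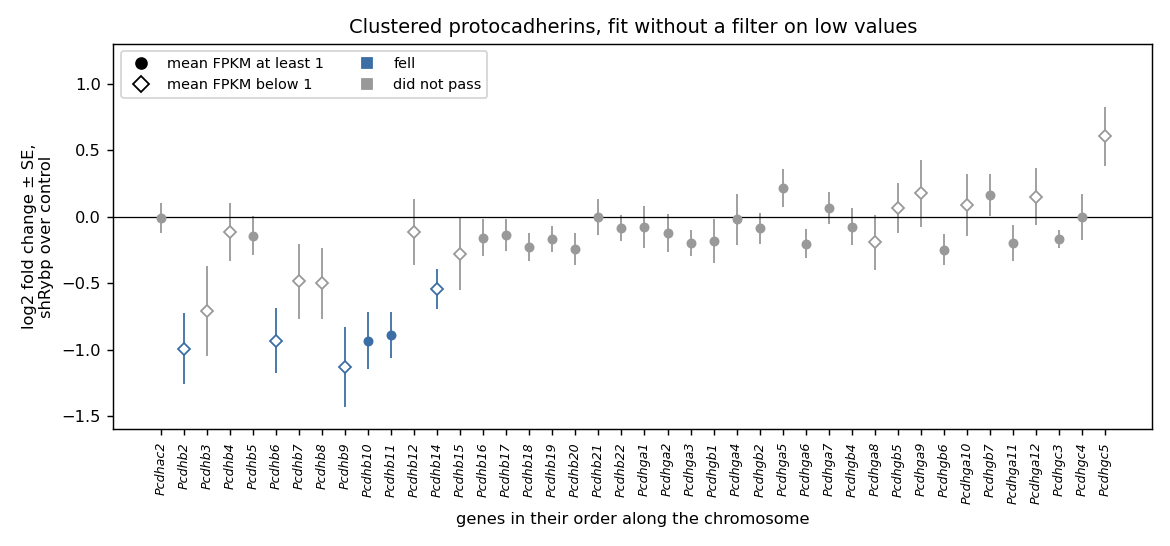
Log2 fold change with its standard error on the vertical axis for the 42 clustered protocadherin genes, in their order along the chromosome on the horizontal axis, from the fit with no minimum level. Falling genes (blue) lie from Pcdhb2 to Pcdhb14, with values of -1.13 to -0.54. Among them lie Pcdhb3, Pcdhb4, Pcdhb5, Pcdhb7, Pcdhb8 and Pcdhb12, which did not pass (-0.71 to -0.12). The genes from Pcdhb15 onward lie between -0.28 and 0.22 except Pcdhgc5 (0.60, edgeR's adjusted p = 0.052).

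Immunoglobulin-family adhesion genes fell in 6 of 10 tested and rose in 1, and their summed level was 168 and 174 FPKM in shRybp against 235 and 238.5 FPKM in control. Most of that sum in control was Cadm4, Cntn1 and Ncam1. Cadm4, an adhesion protein of glia and axons (chromosome 7, 24482023 to 24504539, plus strand), fell to 57.7 and 66.7 FPKM in shRybp, against 104 and 105.6 FPKM in control (log2 change -0.79, SE 0.07, edgeR's adjusted p = 5.8e-06). Its paralogue Cadm2 (chromosome 16, 66655421 to 67620908, minus strand) had the largest fall of all adhesion genes tested, to 4.42 and 3.91 FPKM in shRybp against 9.58 and 9.05 FPKM in control, 2.30-fold lower (log2 change -1.20, SE 0.08, edgeR's adjusted p = 7.8e-07). Cadm1 did not pass (log2 change 0.08, 95% interval -0.08 to 0.24), so that Cadm4 stood at 6.01 and 7.27 times the FPKM of Cadm1 in shRybp, against 11.3 and 13.0 times in control.

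Ncam2 fell to 4.27 and 3.89 FPKM in shRybp, against 6.81 and 6.75 FPKM in control (log2 change -0.77, SE 0.08, edgeR's adjusted p = 1.7e-05). Ncam1, the main carrier of polysialic acid in the brain, fell by 0.33 in log2 units (edgeR's adjusted p = 0.0011). Cntn1, a lipid-anchored contactin, had 37.4 and 36.4 FPKM in shRybp and 46.1 and 46.6 FPKM in control and fell (log2 change -0.36, SE 0.06, edgeR's adjusted p = 0.00055). All 3 genes lay lower in each shRybp library. Cntn6 fell by 0.57 (edgeR's adjusted p = 0.017) and Nectin1 rose by 0.33 (edgeR's adjusted p = 0.020) on the log2 scale, but both calls lay near the threshold and were lost in DESeq2. Cntn6 reached the minimum level only through control, with a mean of 0.821 FPKM in shRybp and 1.19 FPKM in control. Cntn3, with a mean of 1.18 FPKM in shRybp and 0.727 FPKM in control, did not reach it. The edgeR's adjusted p of Cntn6 was 0.054 without control replicate 1 and 0.091 without shRybp replicate 1, and that of Nectin1 was 0.052 to 0.12 without any 1 of the 4 libraries. Nectin2 (-0.01) and Nectin3 (-0.05) did not pass. Below 1 FPKM were Cntn2, Cntn3, Cntn4, Nectin4, Cadm3 and L1cam, and with no minimum level Cntn3 (log2 change 0.67) and Nectin4 (1.26) rose and Cadm3 (-0.78) fell, as did the giant cadherin Celsr3 (-0.79).

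Of the neurexin and neuroligin genes described here, Nrxn3, Nlgn1 and Nlgn3 fell, and Nrxn2 and Nlgn2 did not pass. Nrxn3 fell to 1.09 and 1.20 FPKM in shRybp, against 1.66 and 1.99 FPKM in control (log2 change -0.71, SE 0.12, edgeR's adjusted p = 0.00055). Nrxn2 did not pass, at 14.1 and 15.97 FPKM in shRybp and 14.6 and 15.9 FPKM in control (log2 change -0.05, 95% interval -0.21 to 0.10), groups that overlap.

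Among their partners, Nlgn1, the neuroligin of excitatory synapses, fell to 3.69 and 3.42 FPKM in shRybp, against 5.49 and 5.52 FPKM in control (log2 change -0.67, SE 0.08, edgeR's adjusted p = 4.6e-05). Nlgn3 fell to 2.41 and 2.70 FPKM in shRybp, against 4.56 and 4.36 FPKM in control (log2 change -0.84, SE 0.09, edgeR's adjusted p = 3.1e-05). An overlapping same-strand gene model, Gm21986, covers 41.2% of the Nlgn3 exons, and antisense exons cover 9.2% of those of Nlgn1, so some reads may belong to these. Nlgn2, the neuroligin of inhibitory synapses and the highest of the 3, had 16.9 and 19.9 FPKM in shRybp and 18.9 and 22.6 FPKM in control, groups that overlap, and did not pass (log2 change -0.21, 95% interval -0.41 to -0.01, edgeR's adjusted p = 0.10). It passed without control replicate 1 (edgeR's adjusted p = 0.0064) or without shRybp replicate 2 (edgeR's adjusted p = 0.023).

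Genes that work with these families were read from the same fit. Of 28 other immunoglobulin and adhesion genes tested 16 fell and 6 rose, with a median log2 fold change of -0.29, and the largest changes were falls of Dscaml1 (-1.87), Vcam1 (-1.28), Alcam (-1.18) and Lsamp (-0.92). Of 22 synaptic organizer genes tested 10 fell and 1 rose (median -0.26), with Lrrtm2 (-1.08), a neurexin ligand, and Flrt2 (-0.99), Apba1 (-0.66) and Slitrk2 (-0.61) foremost. Lrrtm2 lies on the strand opposite to Ctnna1, with which it shares exon bases. The shares of all genes tested that fell and rose are given above for comparison.

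Planar polarity and Hippo genes went the other way, with 12 of 29 tested rising and 3 falling (median log2 fold change 0.13). Tead2 (0.65), a DNA-binding partner of Yap, Amotl1 (0.55) and Limd1 (0.52) rose, while Amotl2 (-1.06), which encodes a Yap-binding angiomotin, fell. Of 28 junction and polarity genes tested 6 fell and 3 rose (median -0.04), with falls of the scaffold gene Mpp5 (-0.58), Iqgap1 (-0.54) and Arvcf (-0.43), a relative of p120-catenin. Of 17 genes tested for sheddases, their inhibitors and polysialyltransferases 5 fell and 3 rose (median -0.12). Timp3 (-1.20), a metalloprotease inhibitor, Aph1b (-0.50) and Adam22 (-0.35) fell and Mmp15 (0.50) rose, and Adam10, the main protease that cleaves N-cadherin, rose by 0.27 (edgeR's adjusted p = 0.0039; named beyond the rule after its value was seen). Both polysialyltransferase genes listed, St8sia2 and St8sia4, were below 1 FPKM. Of 16 regulators of cadherin transcription tested Zeb2 fell (-0.28) and Tcf3 rose (0.25), and of the other cadherin superfamily genes only Clstn1 was tested and did not pass (-0.03).

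Genomic span, from start to end of the gene with introns, differed between the adhesion genes by call. The median span was 334 kb for the 26 that fell (range 2.9 to 1612 kb), 106 kb for the 6 that rose, 89.8 kb for the 40 that did not pass and 21.8 kb for the other 11990 genes tested. Of the 11 adhesion genes tested over 500 kb 10 fell, and Fat3 alone did not pass. Cntn4 (1021.7 kb) was below the minimum level and was not tested. Among other genes the percentage that fell was also higher at longer spans, with 10% under 10 kb, 15.9% from 10 to 50 kb, 22.9% from 50 to 200 kb, 31.5% from 200 to 500 kb and 46.3% of the 108 genes over 500 kb, where 4.6% rose. With library totals in place of TMM scaling 40.7% of these 108 genes fell, and with DESeq2 35.2%. In both settings 10 of the 11 adhesion genes tested over 500 kb fell. Fewer genes of any span fell there too, 1718 of all genes tested with library totals and 1444 with DESeq2, against 2013 in the fit as reported. Of the adhesion genes tested under 10 kb 2 of 10 fell and 0 rose. Of those of 10 to 50 kb 2 of 13 fell, Cadm4 (22.5 kb) and Nlgn3 (26.8 kb), and 2 rose. Among those of 50 to 200 kb 7 of 29 fell and 3 rose. These 29 include the 13 tested Pcdhga and Pcdhgb genes, which share their constant exons and of which none passed.

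**Figure D5:**
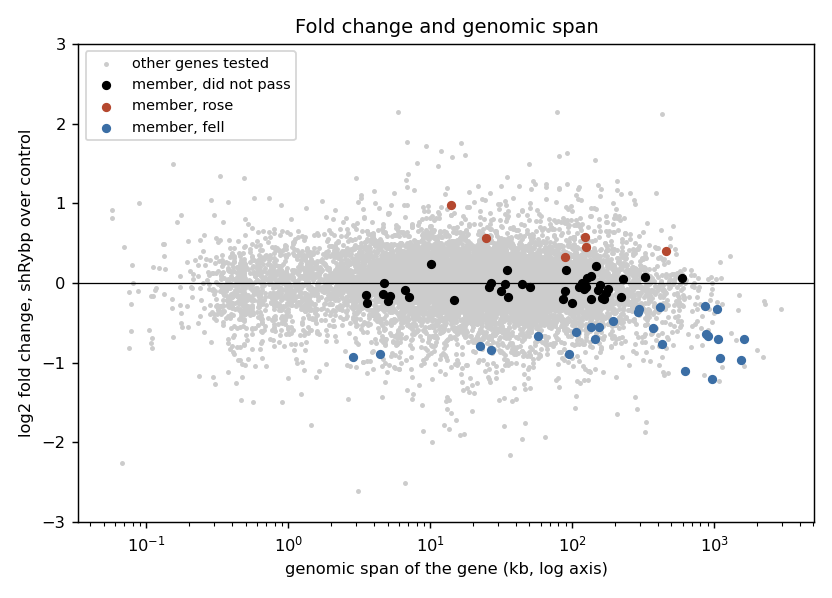
Log2 fold change in shRybp over control on the vertical axis against genomic span in kb on a logarithmic horizontal axis, with adhesion genes coloured by their result and the other genes tested in grey. Beyond 500 kb 10 of 11 adhesion genes tested and 46.3% of the 108 other genes tested fell.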

How the data were processed

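Gene counts and FPKM values of 13881 genes, each with at least 40 counts over the 4 libraries, were deposited by the authors, with mm10 as the build in the submitters' processing notes. No source used here names the aligner or counter, or says how strand and reads shared by genes were handled. The FPKM length equals the union of GENCODE exons for 98.2% of genes (tolerance 0.1%). Date-like symbols of 21 genes were restored from their gene IDs. Genes with a mean of at least 1 FPKM were tested on the deposited counts with edgeR 4.0.16 (TMM scaling, quasi-likelihood test, Benjamini-Hochberg threshold 0.05) and the fit was tested on simulated data. Intervals of fold changes cover the spread between libraries under that fit. Alternatives were library totals, other minimum levels, DESeq2, limma on log2(FPKM + 1) and log2(FPKM + 0.1), a replicate block and leaving out each library. The genes, the partner and marker lists and the span classes were chosen with earlier results of these data known, so they are no independent evidence. Every adhesion gene that passed is named, except that some results are not reported here, though the counts include them. Values per library are given for those changed by 1.5-fold or more and for the 2 highest of each family, and each partner list names up to 4 genes that passed with the largest changes. Values beyond these, and the ratios between genes, were added after the values were seen. Promoters are from RefSeq, GRCm38.p6. Protein sequences were not used here.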

Additional observations from a re-analysis of the deposited data

How the results depend on the processing

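Of the 32 adhesion genes that passed the test, 25 were tested and kept their call in all 11 alternative settings, and 4 kept it wherever tested but lay below the minimum of 2 FPKM (Pcdh15, Nrxn3, Pcdhb10 and Pcdhb11). Cntn6 and Nectin1 each lost it in 5 and Pcdh7 in 3, and none reversed. Of the genes that did not pass, Cdh2, Dchs1 and Nlgn2 passed in 3 settings each, Pcdhb18 in 2, and Pcdhb20, Pcdhgc3 and Pcdhgb6 in 1 each. Leaving out 1 library gave the call to Cdh2 and Pcdhgb6 (control replicate 2), Dchs1 (shRybp replicate 1), Nlgn2 (control replicate 1 or shRybp replicate 2) and Pcdhb18 (control replicate 1). The numbers that rose and fell were 6 and 26 in the fit as reported, 7 and 26 with library totals, 5 and 25 with DESeq2, 8 and 32 with no minimum level, 6 and 22 with a mean of at least 2 FPKM, and 6 and 24 with limma at both pseudocounts. Leaving out 1 library at a time gave 5 to 6 that rose and 25 to 28 that fell. Over all genes the same settings gave 1296 (without shRybp replicate 2) to 1640 that rose and 1481 to 1760 that fell. Over all genes 2361 rose and 1718 fell with library totals, 1365 and 1444 with DESeq2, and 1982 and 1442 with limma on log2(FPKM + 1). With a mean of at least 2 FPKM 60 adhesion genes were tested and 0 of these lost a call, and over all genes 1806 rose and 1862 fell. With the replicate block 7 adhesion genes rose and 31 fell, and over all genes 2676 rose and 2652 fell. The labels give replicate numbers but no pairing, and with 2 pairs the block is given only as a value. Counts below about 100 per library limit the low Pcdhb genes.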
